A study of Mus musculus with 4 samples.

Results

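Interferon-stimulated genes were followed in mouse mammary cells with and without a conditional deletion of ΔNp63, the N-terminally truncated p63 isoform of basal epithelium. The set holds 44 genes among the 54393 gene identifiers of the deposited count table. They were chosen by symbol, with earlier results of these data known. Of the 44, 37 are classed as type I-like and 6 as gamma-inducible GTPases, while Irf1 answers to both kinds of interferon and stands alone. All 44 passed the filter on low counts and belong to the 18917 genes that were tested.

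Libraries came from mammary cells of animals labelled WT and Dnp63 cKO, 1 library per genotype at 10 days and 1 at 5 weeks after tamoxifen. The labels give 1 strain description for all 4 libraries, iK14-Cre; DNp63 f/f, an inducible Cre under the keratin 14 promoter together with a floxed ΔNp63 allele. They do not say whether WT animals carried Cre or the floxed allele. Tamoxifen (1.5 mg/ml) is listed for every library and was given at 4 weeks of age, so the agent is shared by both genotypes. The gland ages in the labels do not add up with the later interval, so no age at collection is given. Dissociated cells bearing CD45, CD31 or Ter119 were sorted away, and 100000 of the remaining cells entered each library. Nothing states that libraries came from separate animals or how many animals each held, so a p-value measures only the spread between these libraries, which may be technical. Keratin 14 is a basal keratin, so Cre is driven in cells that use that promoter, while each library mixes several cell types. Every value below for a genotype at a time point comes from 1 library.

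Total counts were 33363255 in WT and 31714181 in cKO at 10 days, and 79122250 and 34230566 at 5 weeks. The 5-week WT library was thus by far the deepest. Levels are given as per-million counts (CPM), relative to the TMM-scaled total of the library. Trp63, the targeted gene, stood at 46.8 CPM in WT and 12.8 in cKO at 10 days, and at 160.5 and 25.5 at 5 weeks (log2 fold change -2.26 with SE 0.267, adjusted p = 0.107). These counts cover all p63 isoforms, so they check the ΔNp63 deletion in part. The WT libraries differed from each other in basal keratins. Over 8 basal epithelial markers, levels summed to 5684 CPM at 10 days and 16860 at 5 weeks in WT, against 3245 and 2529 in cKO. Krt5 (1018 and 7826 CPM in WT) and Krt14 (1637 and 6510) made most of the WT difference, while Acta2 went the other way (1267 and 690.3). Between genotypes, 4 of the 8 basal markers lay lower in cKO at both time points, against 30.4% of all genes. In the other 4 (Acta2, Myh11, Oxtr and Igfbp3) the time points had opposite signs, against 39.7% of all genes. Although the tissue label reads mammary epithelial cells, 8 fibroblast markers summed to 35300 CPM in WT and 25090 in cKO at 10 days, and to 22540 and 50530 at 5 weeks. The fitted log2 fold change was above 0 for 8 of those 8 (median 0.49), and for 9353 of the 18917 tested genes. In 4 of the 8 the time points had opposite signs, against 39.7% of all genes. The median log2 ratio of cKO to WT over the 8 was -0.04 at 10 days and 0.95 at 5 weeks. In bulk RNA, fewer cells of a type and less RNA per cell cannot be told apart.

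Interferons are secreted proteins that announce infection. Type I interferons, through their receptor and the kinases JAK1 and TYK2, activate the ISGF3 complex, which holds STAT2 and IRF9 and binds the interferon-stimulated response element (ISRE) near its target genes. Interferon gamma works through JAK1 and JAK2 and leads to binding at gamma-activated sites (GAS), and it is a strong inducer of the guanylate-binding proteins and immunity-related GTPases that attack the vacuoles of intracellular pathogens. The programs overlap, and most of the genes below respond to either interferon to some degree.

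The 2 elements can be read in the promoters of members from both classes. RefSeq (GRCm38.p6) supplied a promoter of 300 bases, 250 before the annotated start and 50 from it, for 32 of the 44 genes. An ISRE was searched as a pair of GAAA boxes parted by any 2 bases and a GAS as TTCNNNGAA, on both strands and with overlapping matches kept. The 6 stretches below were chosen to show paired ISREs (Ifit1, Ifit3), overlapping ones (Isg15), a GAS alone (Irf1) and both elements together (Gbp7, Igtp). Each is 100 bases, 5′ to 3′ on the gene's strand, with the matched letters in capitals. None overlaps a gene or exon of GENCODE M21. They lie at chr19:34640759-34640858 (plus strand) for Ifit1, chr19:34583362-34583461 (plus) for Ifit3, chr4:156200830-156200929 (minus) for Isg15, chr11:53769879-53769978 (plus) for Irf1, chr3:142530236-142530335 (plus) for Gbp7 and chr11:58199456-58199555 (plus) for Igtp.
Ifit1: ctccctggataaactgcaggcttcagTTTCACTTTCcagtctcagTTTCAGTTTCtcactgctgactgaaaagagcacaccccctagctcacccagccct
Ifit3: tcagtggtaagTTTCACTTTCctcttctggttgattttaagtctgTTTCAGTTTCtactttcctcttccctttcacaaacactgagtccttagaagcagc
Isg15: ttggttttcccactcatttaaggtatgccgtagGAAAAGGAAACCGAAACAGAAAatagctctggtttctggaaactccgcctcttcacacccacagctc
Irf1: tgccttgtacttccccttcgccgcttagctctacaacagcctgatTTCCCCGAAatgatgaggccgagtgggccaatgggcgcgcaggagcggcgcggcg
Gbp7: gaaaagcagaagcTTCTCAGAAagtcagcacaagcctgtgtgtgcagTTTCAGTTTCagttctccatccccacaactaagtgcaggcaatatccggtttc
Igtp: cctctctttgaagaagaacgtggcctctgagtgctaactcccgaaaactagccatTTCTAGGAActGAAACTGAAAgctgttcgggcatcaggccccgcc
In Ifit1 the 2 ISREs begin 104 and 85 bases before the start, and both are read as their reverse complement. The neighbouring Ifit3b promoter holds the same 100 bases as the Ifit3 stretch, with 0 differing positions. Isg15 carries 3 ISREs in tandem that share letters.

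Matches to the ISRE were found in 16 of the 32 member promoters (50%), against 3.17% of the 12495 tested genes with a RefSeq promoter. They were present in 11 of 26 type I-like promoters (42.3%) and in 5 of 5 GTPase promoters, where Gbp2, Gbp3 and Irgm1 had an ISRE without a GAS in the window. GAS matches were found in 9 of 32 member promoters (28.1%), against 7.11% of all. By class, that was 6 of 26 type I-like and 2 of 5 GTPase promoters. The median log2 fold change between genotypes was 1.08 over the 16 members with an ISRE (0.23 for Ddx58 to 2.06 for Ifit1). Over the 16 without a match it was 0.65 (-0.29 for Samhd1 to 1.08 for Oasl2), and the ranges overlapped. For GAS matches the median was 0.78 over the 9 with one and 0.88 over the 23 without. A match describes letters in this window and is not evidence of binding.

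As a group, the 44 genes lay higher in cKO than in WT, by a median log2 fold change (cKO minus WT, over both time points) of 0.85 (quartiles 0.45 and 1.09), where the median of all tested genes was -0.01 (quartiles -0.29 and 0.32). The cKO library lay above the WT library at both time points for 38 members, below at both for 1 (Samhd1), and in opposite directions for 5. Over all genes those shares were 29.7%, 30.4% and 39.7%. Both cKO libraries exceeded both WT libraries for 34 members, against 22.6% of all genes, and fell short of both for 1, against 23.3%. No member passed an adjusted p of 0.05 over all tested genes in edgeR's quasi-likelihood test (0 of 44, where 0.0581% of all genes passed), and the smallest adjusted p was 0.145, for Ifit1. At an unadjusted p under 0.05, 26 members lay higher in cKO and 0 lower, against 5.8% of all genes in each direction. That count was 8 without the 10-day cKO library and 17 without the 5-week WT library, in fits that also lose the time term. DESeq2 called 11 members higher (1.22% of all genes), limma-voom 0 (0.0211%), and edgeR without the low-count filter 15 (1.7%). The 4 libraries leave 1 residual degree of freedom, so the fold changes below are given as measured values with their standard errors.

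**Figure D1:**
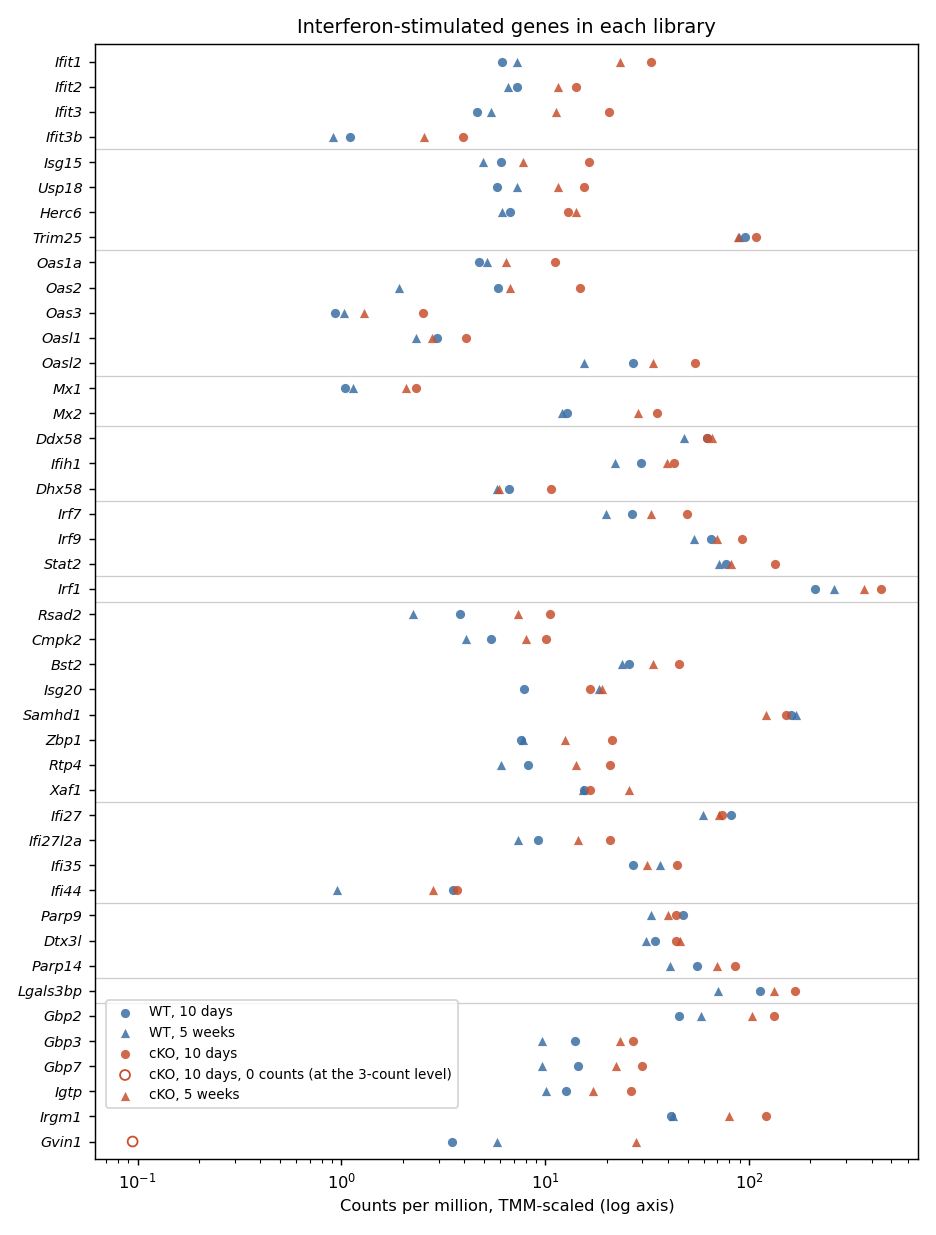
CPM (log axis, TMM-scaled) of the 44 interferon-stimulated genes in each of the 4 libraries, with WT in blue, cKO in red, circles for 10 days and triangles for 5 weeks. For 34 genes both red symbols lie to the right of both blue ones, Samhd1 shows the reverse, and the open circle marks Gvin1 with 0 counts in the 10-day cKO library, drawn at the level of 3 counts (0.0944 CPM).

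The IFIT genes, whose products bind foreign RNA and hold back its translation, had the highest median of the role groups (log2 fold change 1.63 over 4 genes). They lie together at chr19:34550694-34650009 (GRCm38). Ifit1, which recognises RNA lacking host cap methylation, stood at 6.13 CPM in WT and 33.1 in cKO at 10 days, and at 7.25 and 23.4 at 5 weeks. Both cKO libraries were above both WT libraries, a 4.16-fold difference in the fit (log2 fold change 2.06 with SE 0.295, adjusted p = 0.145). Ifit3 stood at 4.64 and 20.5 CPM at 10 days and at 5.40 and 11.3 at 5 weeks (log2 fold change 1.60 with SE 0.370, adjusted p = 0.266). The log2 ratio of Ifit3 came to 2.13 early and to 1.06 late. Ifit3 shares 61.8% of its 31-base words with Ifit3b (log2 fold change 1.66), so the division of reads between them is uncertain. Summed, they stood at 5.75 and 24.5 CPM at 10 days and at 6.31 and 13.9 at 5 weeks (log2 fold change 1.61 with SE 0.340). Ifit2 lay nearest to WT within the cluster (log2 fold change 0.89), and all 4 genes had the larger ratio at 10 days.

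In the ISG15 system a ubiquitin-like protein, ISG15, is attached to other proteins by the ligase HERC6 and removed by USP18. Herc6 stood at 6.74 CPM in WT and 12.9 in cKO at 10 days, and at 6.14 and 14.2 at 5 weeks (log2 fold change 1.08 with SE 0.288, adjusted p = 0.310). Usp18, which also damps signalling at the type I receptor, stood at 5.78 and 15.5 CPM and at 7.26 and 11.5 (log2 fold change 1.04 with SE 0.327, adjusted p = 0.356). In both genes the genotypes did not overlap. Isg15 had a similar fitted difference (log2 fold change 1.04), with a log2 ratio of 1.42 at 10 days and 0.65 at 5 weeks. Trim25, a ubiquitin ligase that modifies RIG-I and had the highest level per kb of the group (16.5 CPM per kb), overlapped between genotypes. Its values were 95.2 and 107.7 CPM at 10 days and 89.3 and 88.6 at 5 weeks (log2 fold change 0.08 with SE 0.192, adjusted p = 0.903).

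The oligoadenylate synthetases sense double-stranded RNA and make the messenger that activates RNase L. Oasl2, a family member with a ubiquitin-like tail and the highest level per kb among these genes, stood at 26.9 CPM in WT and 54.4 in cKO at 10 days, and at 15.4 and 33.9 at 5 weeks (log2 fold change 1.08 with SE 0.212, adjusted p = 0.226). Oas2 stood at 5.89 and 14.9 CPM and at 1.93 and 6.72 (log2 fold change 1.56 with SE 0.328, adjusted p = 0.237). Within each time point cKO was higher for both genes, and both were lower at 5 weeks in each genotype. Oas1a and Oas3 had a log2 ratio of 1.24 and 1.40 at 10 days, and of 0.30 and 0.32 at 5 weeks. Oas1a shares 68.8% of its words with other genes, mainly Oas1g, and the sum of the pair gave a log2 fold change of 0.82 (SE 0.339). Oasl1, a translational brake on Irf7, overlapped between genotypes (log2 fold change 0.36). Of the Mx proteins, dynamin-like GTPases that trap viral particles, Mx2 stood at 12.7 and 35.3 CPM at 10 days and at 12.04 and 28.4 at 5 weeks (log2 fold change 1.36 with SE 0.231, adjusted p = 0.210). Mx1 lay between 1.05 and 2.33 CPM and had a log2 fold change of 0.997.

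Receptors of the RIG-I family, which detect viral RNA in the cytosol and start interferon production, lay closer to WT (median log2 fold change 0.36 over 3 genes). Ifih1, which encodes MDA5, the sensor of long double-stranded RNA, stood at 29.4 CPM in WT and 42.7 in cKO at 10 days, and at 21.9 and 39.6 at 5 weeks (log2 fold change 0.70 with SE 0.220, adjusted p = 0.356). Ddx58, which encodes RIG-I, had the highest level per kb of the 3. It stood at 62.0 and 62.5 CPM at 10 days and at 48.2 and 66.0 at 5 weeks, nearly level at the earlier time and apart at the later (log2 fold change 0.23 with SE 0.212, adjusted p = 0.729). Dhx58, their regulator LGP2, was at 5.78 CPM in WT and 5.92 in cKO at 5 weeks and overlapped between genotypes.

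The transcription factors that carry the signal had a median log2 fold change of 0.50 (Irf7, Irf9 and Stat2). Irf7, the amplifier of interferon alpha genes, stood at 26.5 CPM in WT and 49.8 in cKO at 10 days, and at 19.9 and 33.1 at 5 weeks (log2 fold change 0.82 with SE 0.213, adjusted p = 0.297). For Irf9, the DNA-binding part of ISGF3, the values were 64.7 and 92.7 CPM and 53.5 and 69.8 (log2 fold change 0.45 with SE 0.190, adjusted p = 0.449). In these genes, and in Stat2, both cKO libraries lay above both WT libraries. Stat2, the transactivating part of ISGF3, had 76.7 CPM in WT and 133.8 in cKO at 10 days, then 71.2 and 81.8 (log2 fold change 0.50 with SE 0.228, adjusted p = 0.475). Irf1, a factor induced by both interferon classes whose promoter is printed above with its GAS, stood at 209.6 and 444.3 CPM at 10 days and at 262.3 and 367.9 at 5 weeks (log2 fold change 0.79 with SE 0.267, adjusted p = 0.382). Divided by exon length, the mean level of Irf1 was 80.8 CPM per kb, the highest of the 44 genes. Next came Ifi27 at 48.6, Lgals3bp at 42.5, Bst2 at 35.6 and Gbp2 at 33.9 CPM per kb, and the lowest were Ifi44 at 0.449, Mx1 at 0.435 and Oas3 at 0.204.

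Among 8 other antiviral effectors the median log2 fold change was 0.80. Rsad2, which encodes viperin, an enzyme that makes a chain-terminating nucleotide, stood at 3.83 CPM in WT and 10.5 in cKO at 10 days, and at 2.24 and 7.33 at 5 weeks (log2 fold change 1.58 with SE 0.334, adjusted p = 0.237). Its neighbour Cmpk2, a nucleotide kinase at the same locus on chromosome 12, had a log2 fold change of 0.94. Rtp4, a Golgi chaperone of receptors, stood at 8.22 and 20.8 CPM and at 6.06 and 14.2 (log2 fold change 1.28 with SE 0.268, adjusted p = 0.237). Zbp1, a sensor of Z-form nucleic acid that can trigger necroptosis, had a log2 fold change of 1.08, and Bst2, the tetherin that holds budding virions, one of 0.66. Xaf1, a pro-apoptotic factor, stood near WT at 10 days (log2 ratio 0.09) and above it at 5 weeks (0.76), while Isg20, an exonuclease, did the opposite (1.08 and 0.05). Samhd1, which depletes deoxynucleotides, ran against the rest. It stood at 161.4 CPM in WT and 152.6 in cKO at 10 days, and at 169.5 and 120.8 at 5 weeks (log2 fold change -0.29 with SE 0.219, adjusted p = 0.677).

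The Ifi genes did not behave alike. Ifi27l2a, which encodes a small hydrophobic protein, stood at 9.23 CPM in WT and 20.9 in cKO at 10 days, and at 7.33 and 14.5 at 5 weeks (log2 fold change 1.08 with SE 0.264, adjusted p = 0.282). Its neighbour on chromosome 12, Ifi27, had the higher level per kb (48.6 against 28.02 CPM per kb) and overlapped between genotypes, at 81.3 and 73.7 CPM at 10 days and at 59.3 and 70.9 at 5 weeks (log2 fold change 0.06 with SE 0.206, adjusted p = 0.940). Ifi44 stood at 3.54 and 3.68 CPM at 10 days and at 0.950 and 2.83 at 5 weeks (log2 fold change 0.80 with SE 0.511, adjusted p = 0.607), so its genotypes differed at the later time point and hardly at the earlier. Ifi35, a partner of NMI, lay above WT at 10 days and below it at 5 weeks (log2 ratio 0.72 and -0.20). Of the ADP-ribosylation genes at chr16:35832874-35972605, Parp14, a mono-ADP-ribosyltransferase, stood at 55.8 and 84.96 CPM and at 41.0 and 69.4 (log2 fold change 0.68 with SE 0.192, adjusted p = 0.324). Dtx3l, the ubiquitin ligase that pairs with PARP9, stood at 34.7 and 43.9 CPM and at 31.4 and 45.7 (log2 fold change 0.44 with SE 0.208, adjusted p = 0.488). Parp9 overlapped between genotypes (log2 fold change 0.08), and since its gene body overlaps Dtx3l on the opposite strand and the strand setting of the counting is not given, the division of reads between them is uncertain. Usp18, Herc6, Dhx58, Irf7, Irf9, Rtp4 and Gbp7 also overlap another tested gene. Lgals3bp, a secreted galectin-binding glycoprotein, stood at 113.3 and 167.5 CPM and at 70.3 and 133.1, with cKO above WT in both pairs (log2 fold change 0.74 with SE 0.209, adjusted p = 0.324).

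**Figure D2:**
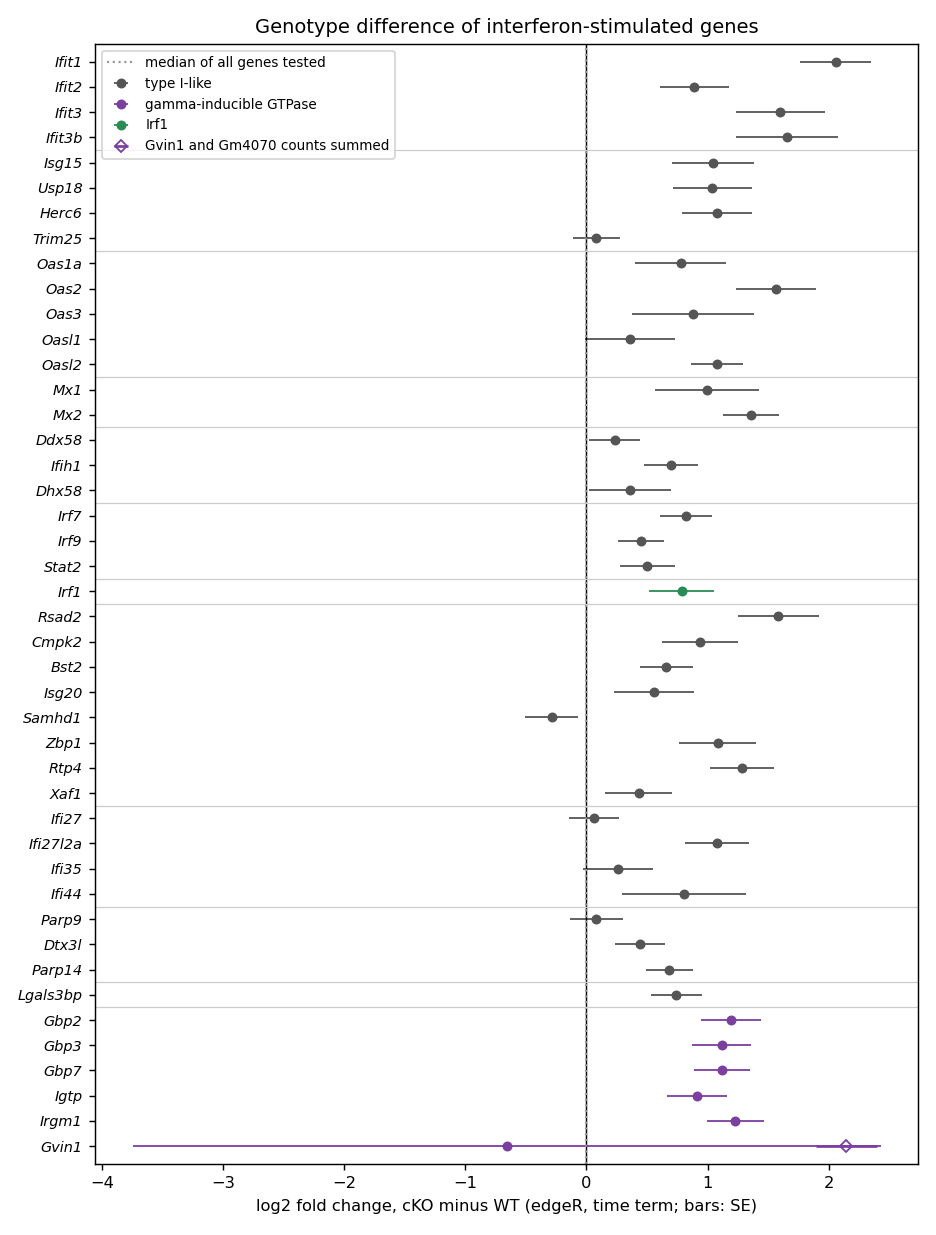
Log2 fold change between genotypes (cKO minus WT) from the edgeR model with a time term, with bars of 1 standard error, for type I-like genes in grey, GTPases in purple and Irf1 in green. The values run from -0.66 for Gvin1, whose bar is by far the widest, to 2.06 for Ifit1, and the diamond gives Gvin1 after summing with Gm4070 (2.14).

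The gamma-inducible GTPases other than Gvin1, which is given below, had 5 log2 fold changes between 0.92 and 1.23. In 14 other interferon-inducible GTPases, counted further below, the values ran from 0.65 to 1.85. The top value was that of Gbp10 (SE 0.811), which shares 89.8% of its words with other genes. Gbp2, a guanylate-binding protein that coats pathogen vacuoles, stood at 45.5 CPM in WT and 133.3 in cKO at 10 days, and at 58.2 and 103.9 at 5 weeks (log2 fold change 1.19 with SE 0.245, adjusted p = 0.237). Gbp3 stood at 14.0 and 27.0 CPM and at 9.60 and 23.4 (log2 fold change 1.12 with SE 0.245, adjusted p = 0.250). Gbp7 stood at 14.5 and 29.8 CPM and at 9.64 and 22.2 (log2 fold change 1.12 with SE 0.235, adjusted p = 0.237). These 3 genes adjoin each other at chr3:142530342-142638008, and in each of them both cKO libraries lay above both WT libraries. Irgm1, a regulator of the other immunity-related GTPases and of autophagy, stood at 41.4 and 121.6 CPM and at 42.6 and 79.9 (log2 fold change 1.23 with SE 0.237, adjusted p = 0.220). Igtp, also called Irgm3, stood at 12.6 and 26.4 CPM and at 10.1 and 17.1 (log2 fold change 0.92 with SE 0.247, adjusted p = 0.316). It shares 15.9% of its words with the overlapping gene Irgm2.

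Gvin1, a very large interferon-inducible GTPase, broke this pattern. The deposited table gives it 120 counts in WT and 0 in cKO at 10 days, and 446 and 947 at 5 weeks, which is 3.48, 0, 5.80 and 27.9 CPM. The 0 in the 10-day cKO library allows a level of up to 3 counts, or 0.0944 CPM, covering counting error only. Of the 9005 words in its transcripts, 99.7% also occur in other genes, and 99% in the predicted gene Gm4070. Gm4070 had 131 and 878 counts at 10 days and 216 and 553 at 5 weeks, so it was high in the library where Gvin1 was at 0. Summed, the pair stood at 7.29 and 27.6 CPM at 10 days and at 8.61 and 44.2 at 5 weeks, with both cKO libraries above both WT libraries (log2 fold change 2.14 with SE 0.252, adjusted p = 0.107). The value for Gvin1 alone was -0.66 (SE 3.09, adjusted p = 0.960). This sum was added after the values were seen.

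The classes were set side by side as medians. The median log2 fold change was 0.80 over the 37 type I-like genes (range -0.29 to 2.06) and 1.12 over the 6 GTPases, or 1.12 over the 5 without Gvin1. At 10 days the class medians of the log2 ratio were 0.91 and 1.05, and at 5 weeks 0.73 and 1.05, or 0.91 at the later time without Gvin1. Without Gvin1 (-0.66) the GTPase range of 0.92 to 1.23 lay inside the type I-like range, and no difference between the classes was tested, since their members are not replicates of a condition. Both cKO libraries exceeded both WT libraries for 28 of 37 type I-like genes and 5 of 6 GTPases, against 22.6% of all genes. At an unadjusted p under 0.05, 20 and 5 of them lay higher, against 5.8% of all genes. As summed levels, type I-like genes came to 1062 CPM in WT and 1517 in cKO at 10 days, and to 914.1 and 1198 at 5 weeks. The 5 GTPases came to 128.1 and 338.1 CPM and to 130.1 and 246.4. The type I-like sum includes Samhd1, Trim25 and Ifi27, whose log2 fold changes were -0.29, 0.08 and 0.06.

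Between the time points, 27 of 44 members had the larger genotype ratio at 10 days, against 53.6% of all genes, with a median log2 ratio of 0.95 there and of 0.76 at 5 weeks. Each ratio compares 1 library with 1, so no test of the difference could be made. Time itself, in the same fit, gave a median log2 fold change of -0.33 from 10 days to 5 weeks, against 0.03 for all genes. It was below 0 for 39 of 44 members, where 45.1% of all genes were. No member passed the adjusted threshold (0 of 44 in edgeR, where 0.0634% of genes passed), and none did in DESeq2 (1.04% of all genes) or limma-voom (0.206%). Without the low-count filter edgeR called 1, Oas2, lower at 5 weeks (1.91% of genes in either direction). Oas2 (log2 fold change -1.38) and Oasl2 (-0.74) lay lower at an unadjusted p under 0.05, as did 2.27% of all genes. No member lay higher at that level, against 3.09% of all genes. Within genotypes, the median was -0.17 in WT and -0.41 in cKO.

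**Figure D3:**
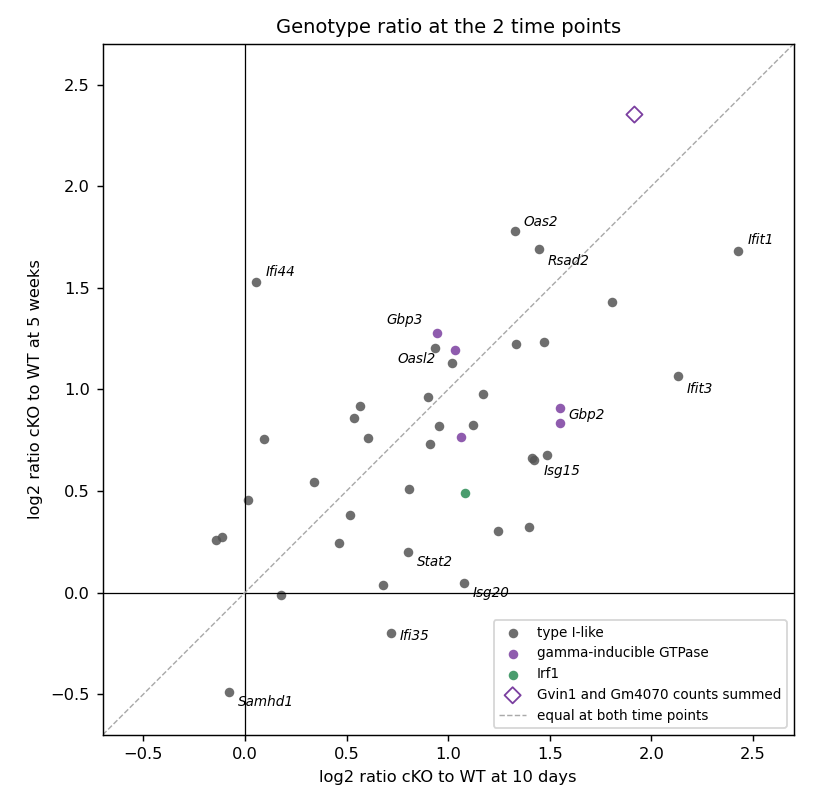
Log2 ratio of cKO to WT at 10 days (horizontal) against 5 weeks (vertical) for each member, with the dashed line marking equal ratios and colours as for the class. Most points lie in the upper right with Ifit1 at 2.43 and 1.68, Samhd1 lies lower left, and Gvin1 is drawn as its sum with Gm4070 (diamond, 1.92 and 2.35) because its own values of -6.29 and 2.26 lie outside the axes.

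Upstream of these genes, interferon transcripts were barely detected. The 21 interferon ligand genes summed to 4 counts in WT and 3 in cKO at 10 days, and to 19 and 7 at 5 weeks, and none passed the filter. Scaled to library size, these sums were 0.116 CPM in WT and 0.0944 in cKO at 10 days, and 0.247 and 0.206 at 5 weeks. The 5-week WT library had the most counts in total. Ifnb1 had 1 count in each library, and Ifng had 0 in both 10-day libraries, 2 in WT and 1 in cKO at 5 weeks. At this depth, 3 counts correspond to between 0.0390 and 0.0944 CPM. Receptors and JAK-STAT genes had a median log2 fold change of 0.17 over 11 genes, of which 1 lay higher at an unadjusted p under 0.05, where 5.8% of all genes did. A share of that size is near the background. The gene was Jak2, the kinase of the gamma receptor, at 75.2 CPM in WT and 107.5 in cKO at 10 days and at 73.3 and 108.5 at 5 weeks (log2 fold change 0.54, adjusted p = 0.388). Jak1 had a log2 fold change of 0.38, and Stat3, with the highest CPM of the list, one of -0.21. Of 14 genes that sense nucleic acids and induce interferon, 0 passed that level (median 0.12). Tlr9, a sensor of unmethylated DNA, had a log2 fold change of 1.38 but lay between 0.169 and 0.787 CPM. The cytosolic DNA sensor gene Cgas was at 0.93, and Myd88, the Toll-like receptor adaptor with the highest CPM of these, at 0.58. Of 9 feedback inhibitors 1 lay higher (median 0.26), again near the background share, the receptor kinase Axl (0.70), while its relative Tyro3 was at -0.55. Socs3, the inhibitor with the highest CPM, had a log2 ratio of 1.42 at 10 days and -0.03 at 5 weeks.

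Other genes known to answer interferon were counted in the same way. Of 14 other interferon-inducible GTPases, 10 lay higher at an unadjusted p under 0.05 and 0 lower, against 5.8% of all genes in each direction. In 14 both cKO libraries exceeded both WT libraries, against 22.6% of all genes (median log2 fold change 1.29). Gbp6 stood at 23.7 CPM in WT and 62.5 in cKO at 10 days, and at 18.8 and 47.7 at 5 weeks (log2 fold change 1.37), but shares 74.2% of its words with other genes. Gbp5, an activator of inflammasomes, had a log2 fold change of 1.66, Tgtp2 one of 1.45 and Iigp1, with the highest CPM, one of 1.06. Tgtp2 is likewise uncertain, with 90.5% of its words shared, as are Gbp10 (89.8%) and Tgtp1 (84.4%). Gbp11 and Gbp8 share 34.3% and 31.1%. Of 40 other type I-inducible genes tested, 12 lay higher and 0 lower at that level (median 0.60). Opposite signs at the 2 time points were seen in 9, against 39.7% of all genes. The DNA-sensor family gene Ifi203 stood at 55.5 and 141.5 CPM and at 56.3 and 169.1 (log2 fold change 1.47, adjusted p = 0.134). Its relatives Ifi204 and Ifi205 were at 1.65 and 1.43, and Trim30a at 1.62. Word sharing was not measured for this list, so the division of reads between related genes was not checked. Among 15 gamma targets that are not GTPases, 5 lay higher and 0 lower (median 0.69), and 6 had opposite signs, near the 39.7% of all genes. Cxcl10, a chemokine that attracts T cells, stood at 22.3 and 71.0 CPM and at 19.8 and 63.2 (log2 fold change 1.67, adjusted p = 0.107). Its relative Cxcl9 was at 1.61, the checkpoint ligand gene Cd274 at 1.10, and the complement inhibitor gene Serping1, with the highest CPM, at 0.84.

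**Figure D4:**
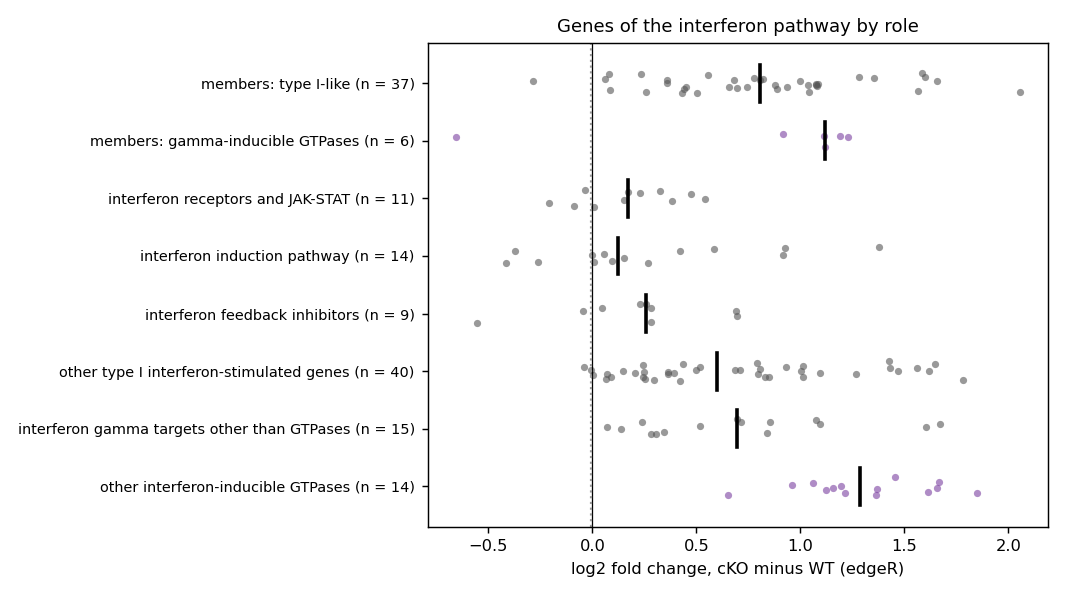
Log2 fold change between genotypes (cKO minus WT) for each tested gene of 8 lists of the interferon pathway, where dots are genes, bars are list medians and the dotted line is the median of all genes tested. Medians lie at 0.12 to 0.26 for induction genes, receptors and feedback inhibitors, and at 0.60 to 1.29 for the lists of responding genes.

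Leukocyte transcripts also lay higher in cKO, although CD45-bearing cells had been sorted away. Of 8 pan-leukocyte markers, 7 lay higher in cKO at an unadjusted p under 0.05, against 5.8% of all genes. In 8 both cKO libraries exceeded both WT libraries, against 22.6% of all genes (median log2 fold change 1.26). The 8 markers summed to 99.4 CPM in WT and 139.8 in cKO at 10 days, and to 70.2 and 161.7 at 5 weeks. Ptprc, which encodes CD45, stood at 9.32 and 18.9 CPM and at 7.26 and 30.7, and Lcp1, the marker with the highest CPM, at 53.6 and 55.2 and at 38.8 and 55.1. Markers of T and NK cells summed to 10.4 and 21.8 CPM at 10 days and to 12.5 and 26.8 at 5 weeks, with 1 of 10 at 0 in the 10-day WT library. B and plasma cell markers summed to 14.4 and 19.0 CPM and to 11.9 and 38.0. Of 9 macrophage and dendritic cell markers tested, 7 had the higher value in cKO at both time points, against 29.7% of all genes. At both time points 0 had the lower value, against 30.4% (median log2 fold change 0.84). Over the 10 listed, the sum was 194.9 and 172.9 CPM at 10 days and 159.3 and 213.6 at 5 weeks. Cd14 held most of that sum, at 139.5 and 95.5 CPM at 10 days. Siglech, a marker of plasmacytoid dendritic cells, which make much interferon alpha, lay between 0.567 and 1.47 CPM. None of the other lists' markers was at 0 in any library. The pan-leukocyte ratio was larger at 5 weeks for 8 of 8 markers (median log2 ratio 0.88 at 10 days and 1.68 at 5 weeks). Over all genes, 53.6% had the larger ratio at 10 days. Endothelial markers summed to 164.1 and 206.6 CPM and to 192.5 and 319.9, while luminal markers came to 8284 and 9621 and to 7690 and 7507. The part of leukocytes, fibroblasts or any other of these cells in the higher levels of interferon-stimulated genes was not tested.

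**Figure D5:**
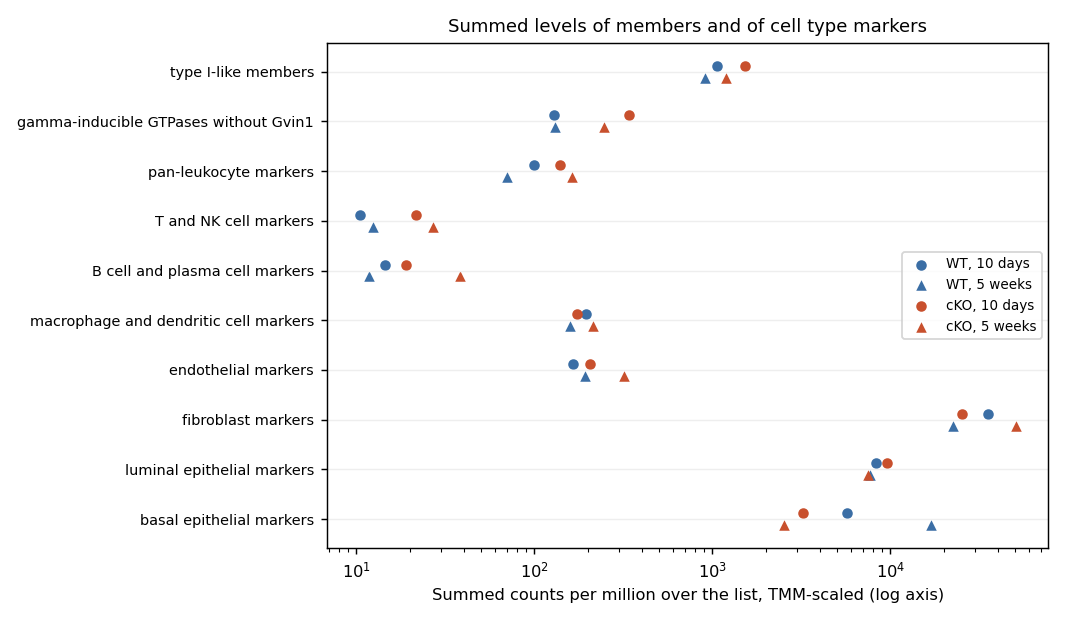
Summed CPM (log axis) of the type I-like genes, the 5 GTPases without Gvin1, and 8 lists of cell type markers in each library, with WT in blue, cKO in red, circles for 10 days and triangles for 5 weeks. Both gene classes and the pan-leukocyte, T and NK cell, B and plasma cell and endothelial sums are higher in both cKO libraries. The basal sum is lower in both, although 4 of its 8 markers had opposite signs at the time points. The macrophage and fibroblast sums overlap between genotypes, and luminal sums lie between 7507 and 9621.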

How the data were processed

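RNA was sequenced in 4 libraries of sorted mouse mammary cells. The authors deposited estimated counts per gene as whole numbers for 54393 identifiers, with 0 columns from other samples. The submitters' processing notes name Salmon, without a version, and the build GRCm38. Neither annotation nor strand setting is given in the sources used here. Every one of the 54393 identifiers was found in GENCODE M21, the source of symbols, positions and exon lengths. Salmon divides reads between similar transcripts by a model. Members and the other interferon-inducible GTPases were therefore checked by the share of 31-base words found in transcripts of other genes. The remaining lists were not checked in this way.

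filterByExpr (minimum count 10) left 18917 genes with 99.9% of counts. edgeR 4.0.16 under R 4.3.3 fitted time and genotype to TMM-scaled counts with its robust quasi-likelihood method, leaving 1 residual degree of freedom (common biological coefficient of variation 0.286). Adjusted p-values are Benjamini-Hochberg over all tested genes (threshold 0.05). Each standard error was obtained as the size of the log2 fold change over the root of its F statistic. CPM use TMM-scaled library sizes, and log2 ratios within a time point use a prior count of 2 and no test. Blocking by time pairs the libraries, because both genotypes have 1 library at either time. The fit was tested on simulated counts with trended or per-gene estimates of spread. With trended estimates it recovered 13 of 50 changes of 2-fold and 48 of 50 of 4-fold, with 5 false calls. With per-gene estimates it recovered 6 of 50 and 47 of 50, with 22 false calls. Changes were placed only in genes with a mean of at least 5 CPM, and no time effect was simulated. The rates therefore do not cover Ifit3b, Oas3, Oasl1, Mx1 and Ifi44, whose means were lower.

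Members, gene lists, cell markers and tests were chosen with earlier results of these data known. Values in every library are given for the 6 GTPases and, in each other role group, for the genes with the smallest genotype p (2, or 1 in groups of 1 or 2) and the highest mean CPM. From each pathway list, up to 3 genes with the smallest p and the most abundant one are named, and other genes appear by log2 fold change or ratio. One gene of the receptor list is not reported here. Alternatives were DESeq2 (1.42.0) as a Wald test and as size factors, upper-quartile factors, no low-count filter, limma-voom (limma 3.58.1), no time term and each library left out. Summing near-identical copies was added after the values were seen.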

Additional observations from a re-analysis of the deposited data

Results flagged for a closer look

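For 5 genes the cKO library lay above WT at one time point and below it at the other. The log2 ratio of cKO to WT was 0.18 at 10 days and -0.012 at 5 weeks for Trim25, and 0.72 and -0.20 for Ifi35. It was -0.14 and 0.26 for Ifi27, and -0.11 and 0.28 for Parp9. For Gvin1 it was -6.29 and 2.26, where the first value rests on a count of 0 and depends on the prior count. With 1 library per genotype and time point, none of these differences between time points was tested. Over all genes, 39.7% had opposite signs.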

How the results depend on the processing

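The median over the 44 genes kept its sign in all settings run, while calls depended on the test. Over all genes edgeR called 11, against 5 with DESeq2 size factors, 3 with upper-quartile factors, 1235 without the low-count filter, 504 in DESeq2, 29 in limma-voom and 0 with no replicate block (no time term). Among members it called 0 for genotype, against 15 without the filter and 11 in DESeq2 (Gbp2, Gbp3, Gbp7, Ifit1, Ifit3, Irgm1, Mx2, Oas2, Oasl2, Rsad2 and Rtp4), and 0 in every other setting. The cause was not tested.

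Leaving out 1 library each, without the time term, gave 0 to 61 calls over all genes (61 without the 10-day WT library, 2 without the 5-week WT library). Members higher at an unadjusted p under 0.05 numbered 8 to 25 instead of 26 (17 without the 5-week WT library). The median of members was 0.62 to 1.04 (0.999 without the 10-day WT library), of type I-like genes 0.52 to 0.99 and of GTPases 0.94 to 1.26 (1.07 without the 5-week WT and 1.24 without the 5-week cKO library). The GTPase median was 1.12 with DESeq2 size factors, 1.15 with upper-quartile factors, 1.10 without the filter, 1.11 in DESeq2, 1.12 in limma-voom, 1.15 with no replicate block and 1.16 with copies summed.

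Single genes changed sign as follows. Without the 10-day cKO library Trim25 was at -0.073, Dhx58 -0.083, Ifi27 -0.0023, Ifi35 -0.011, Parp9 -0.020 and Gvin1 2.57. Without the 10-day WT library Isg20 was at -0.042 and Gvin1 at 1.27. Without the 5-week WT library Ifi27 was at -0.17, Ifi44 -0.12, Parp9 -0.17 and Gvin1 2.00. Gvin1 was at 0.53 in limma-voom, 1.58 with no replicate block and 2.14 with copies summed. Depth limits the genes with the fewest counts most: Oas3, Mx1 and Ifit3b lay near 1 CPM in WT.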
